A study of Mus musculus with 3 samples.

Results

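Genes of DNA replication and mitosis were followed in cells sorted from the mouse peritoneal cavity. The study set mature mast cells beside their progenitors and beside type 2 innate lymphoid cells (ILC2s), which it took as distant relatives. The 46 genes were listed by name, as replication factors, cyclins and their kinases, Cks subunits and proteins of mitosis. Of these, 45 had a probe set that named them alone, among 22180 such genes in the table, and Ccnb1, which encodes cyclin B1, was not analysed here. A gene with several probe sets was represented by the one with the highest mean over the 3 arrays.

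All 3 populations came from untreated (naïve) female BALB/c mice aged 10 to 11 weeks, whose peritoneal cells were pooled from 5 animals, stained and sorted in successive rounds. From each population 100 cells were lysed, and their amplified cDNA was hybridised to 1 array. Both mast cell populations were sorted for high c-kit, for FcεRI and T1/ST2 and for intermediate CD16/32, without CD127 or CD25 and with no or low lineage markers. The gate for progenitors took low side scatter with high integrin β7. That for mature cells took high side scatter, with integrin β7 absent, low or intermediate. ILC2s carried CD127, CD25 and T1/ST2, lacked FcεRI, CD16/32 and lineage markers, and had little or no c-kit.

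There is 1 array per population and the mice were pooled, so the error of the values cannot be estimated. Differences are described without a test. Here a gene counts as different between 2 arrays when the gap in log2 level is at least 1 (2-fold) or at least 2 (4-fold) and the brighter level lies above the median of its array. The median was 6.32 in progenitors and 6.30 on both other arrays. Of 9 mast cell marker genes, 4 lay above a log2 level of 8 in progenitors, 7 did so in mature mast cells and 0 in ILC2s. The genes of the sort markers c-kit and FcεRI were dim in progenitors, where Kit was at 6.89 (10.29 in mature mast cells, 6.63 in ILC2s) and Fcer1a at 5.37 (8.87 and 5.05). Their part in the values lower in progenitors was not tested. Of 10 ILC2 marker genes, 3 lay above a level of 8 in ILC2s and 0 in either mast cell population. Among 22 measured marker genes of B cells, macrophages, T cells, eosinophils and neutrophils, the highest level on any array was 7.33.

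A dividing cell loads the MCM helicase onto replication origins with the help of Cdc6, fires them through Cdc45 and the GINS complex, and starts each new strand with a primer made by primase. Cyclins switch on the cyclin-dependent kinases that drive these steps, Cks proteins are small subunits that bind the kinases, and the inhibitors Cdkn1a (p21) and Cdkn1b (p27) hold them back. Most of these transcripts accumulate in cycling cells under the control of E2F and DREAM complexes. Mast cells in tissue divide rarely, whereas their bone marrow ancestors and cultured mast cells proliferate.

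By measured differences, Cks2 was the only one of the 45 genes at least 4-fold higher in progenitors, and Prim1, which encodes the catalytic subunit of primase, was the only one lower there by at least 4-fold, against mature mast cells. Cks2 stood at 8.08 on the log2 scale in progenitors, at 5.74 in mature mast cells and at 4.80 in ILC2s. Prim1 was at 6.10, 8.20 and 6.33. The dimmer levels behind these 4-fold differences lay below the arrays' medians, against which the folds are at least 3.44 and 3.43 for Cks2 and at least 3.70 for Prim1. The other 43 genes did not reach 2-fold in any of the 3 comparisons. Exactly the same value on all 3 arrays was held by 28 of the 45, against 47.9% of all genes. The proliferation markers Mki67 and Top2a and the mitotic kinase Cdk1 were among the genes that did not reach 2-fold. In a lysate of many cells, fewer cells with a transcript and less of it per cell cannot be told apart.

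**Figure D1:**
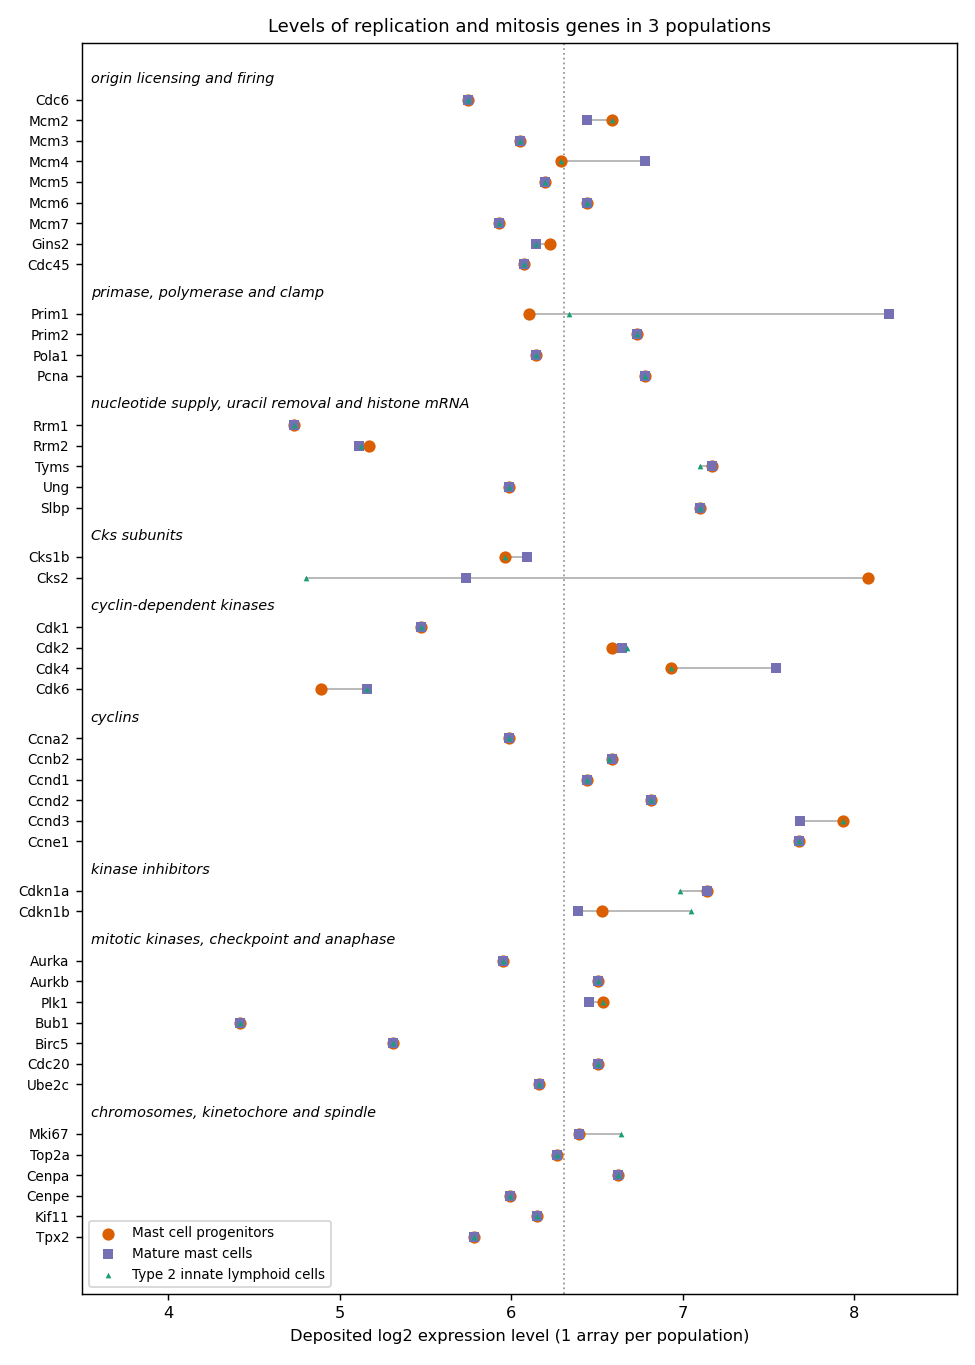
Deposited log2 level (horizontal axis) of each of the 45 genes (rows, grouped by role) on the 3 arrays, with circles for progenitors, squares for mature mast cells and triangles for ILC2s; the dotted line is the mean of the arrays' medians. Symbols coincide for the 28 tied genes, and the longest grey lines belong to Cks2 (8.08 to 4.80) and Prim1 (8.20 to 6.10).

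Between progenitors and mature mast cells, 2 of 45 genes were at least 4-fold different, 1 higher (Cks2) and 1 lower (Prim1) in progenitors. Over all genes the share was 0.947% in either direction, 0.113% higher and 0.834% lower in progenitors. The same 2 genes made up the 2-fold count, against 2.44% of all genes (0.509% higher, 1.93% lower). Between progenitors and ILC2s, 1 of 45 reached 4-fold and 2-fold, Cks2, against 1.1% and 2.65% of all genes. Genes higher in progenitors, as Cks2 was, made up 0.207% at 4-fold and 0.766% at 2-fold, and lower ones 0.888% and 1.88%. Between mature mast cells and ILC2s none reached 4-fold and 1 reached 2-fold, Prim1, against 0.974% and 2.6%. Genes higher in mature mast cells made up 0.573% at 4-fold and 1.34% at 2-fold, and lower ones 0.401% and 1.26%. Counts of at most 2 among 45 genes are too small to set against these shares, and nothing is read from them about the genes as a group. The median difference of the 45 genes was 0 in each comparison, as it was over all genes.

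**Figure D2:**
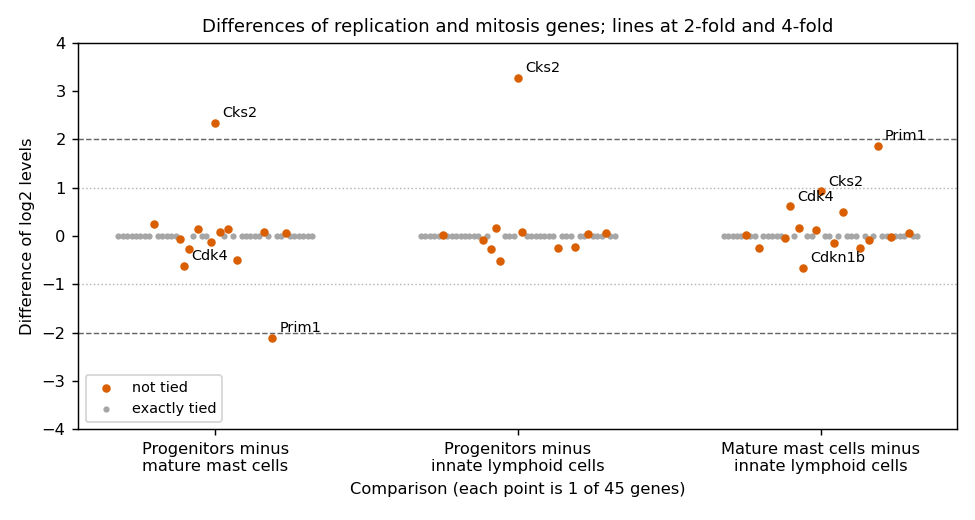
Difference of log2 levels (vertical axis) for each of the 45 genes in the 3 comparisons, with orange points for genes whose arrays differ and grey points for exact ties; dotted lines mark 2-fold and dashed lines 4-fold. Cks2 lies at 2.34 and 3.28 in the comparisons with progenitors and Prim1 at -2.10 and 1.87 in those with mature mast cells, while all other points lie between the dotted lines.

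The Cks proteins were represented by Cks2 and Cks1b. Both bind cyclin-dependent kinases, and Cks1b is also the cofactor with which the ubiquitin ligase SCF-Skp2 recognises p27. The platform's gene table gave 4 probe sets for Cks2 alone. The one with the highest mean (6.21) is the one described above, and on it Cks2 was 2.34 higher in progenitors than in mature mast cells and 3.28 higher than in ILC2s on the log2 scale. The other 3 probe sets held one set of values, equal to 5 decimals, at 10.15 in progenitors, at 4.69 in mature mast cells and at 3.63 in ILC2s, with a mean of 6.16. On these the differences were 5.47 and 6.53. Whether the 3 share their probes is not given in the sources used here, and they are treated as a single measurement. Such equal probe sets were rare, since 32 of 1082 genes with several probe sets had any pair of them.

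By measured values all 4 probe sets, 3 of them with equal values, placed progenitors at least 4-fold above both other populations. The size of the difference depended on the probe set. The levels of Cks2 in mature mast cells and ILC2s lay below the arrays' medians on every probe set, where background can set the value. Against those medians, Cks2 was at least 3.44-fold and at least 3.43-fold higher in progenitors on the first probe set, and at least 14.5-fold and at least 14.4-fold higher on the others. Mature mast cells were 0.93 above ILC2s on the first and 1.06 on the others, both at levels below the medians.

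By measured differences on its first probe set, which exceed the bounds just given, Cks2 was 1 of 21 genes (0.0947% of all) at least 4-fold above both populations. Cks1b did not share the pattern of Cks2. It was at 5.96 in progenitors and ILC2s and at 6.09 in mature mast cells, all below the medians.

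**Figure D3:**
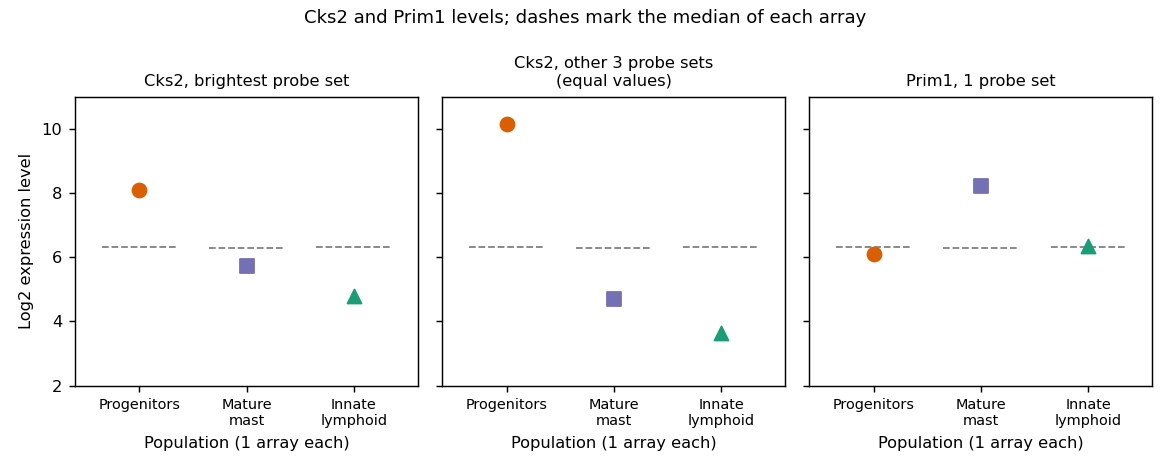
Log2 levels (vertical axis) of Cks2 on its brightest probe set and on the other 3, which have equal values, and of Prim1 on its only probe set, with 1 symbol per population and dashes at each array's median. Cks2 is above the dash only in progenitors (8.08 and 10.15), and Prim1 is highest in mature mast cells (8.20).

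Prim1 makes the RNA primers from which DNA polymerase α extends, in a complex with Prim2 and Pola1. On its single probe set its difference on the log2 scale was -2.10 for progenitors minus mature mast cells and 1.87 for mature mast cells minus ILC2s. Because its level in progenitors lay below the median, mature mast cells were at least 3.70-fold above progenitors, and they were 3.65-fold above ILC2s. Its level in ILC2s, 6.33, lay only just above that array's median of 6.30. Progenitors and ILC2s were within 2-fold of each other. Its partners did not share this pattern. Prim2 was at 6.73 and Pola1 at 6.15 on all 3 arrays, and so was Pcna, the sliding clamp of the replicative polymerases, at 6.78. These are exact ties, which hide small differences, and Pola1 lay below the arrays' medians.

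Of 822 genes picked for a level within 0.5 of that of Prim1 in mature mast cells, 44 (5.35%) were lower in progenitors by at least 4-fold, and 30 (3.65%) were so in ILC2s. Picking genes by the brighter array favours lower values on the others, so these shares are not set against those of all genes. Separately, 489 genes of the table were bright (above 8) and similar (within 2-fold) in mature mast cells and ILC2s, and 41 of them (8.38%) were at least 4-fold below both in progenitors. For mature mast cells the corresponding count was 0 of 371, and for ILC2s it was 3 of 402 (0.746%). The part of such lower values in the Prim1 difference was not tested. Prim1 itself, at 6.33 in ILC2s, was not among the 489 genes.

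The promoters of Cks2, Cks1b and Prim1 are shown because Cks2 and Prim1 carry the differences and Cks1b is the paralog of Cks2. Each is the 250 bases before the annotated start of the gene, 5′ to 3′ on the gene's strand, from RefSeq on GRCm38.p6. Capitals mark matches on either strand to an E2F core (TTCCCGC), the cell cycle homology region or CHR (TTTGAA) that DREAM complexes bind, and the CCAAT box bound by NF-Y.
Cks2: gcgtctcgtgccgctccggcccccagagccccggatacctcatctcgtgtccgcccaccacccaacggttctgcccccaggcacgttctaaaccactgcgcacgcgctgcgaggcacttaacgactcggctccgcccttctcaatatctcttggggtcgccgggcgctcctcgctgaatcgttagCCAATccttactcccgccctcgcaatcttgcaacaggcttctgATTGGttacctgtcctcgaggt
Cks1b: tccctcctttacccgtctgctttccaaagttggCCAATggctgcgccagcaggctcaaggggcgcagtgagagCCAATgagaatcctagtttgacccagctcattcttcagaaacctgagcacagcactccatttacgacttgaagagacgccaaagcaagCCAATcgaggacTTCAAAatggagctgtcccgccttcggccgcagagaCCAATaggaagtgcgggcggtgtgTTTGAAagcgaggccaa
Prim1: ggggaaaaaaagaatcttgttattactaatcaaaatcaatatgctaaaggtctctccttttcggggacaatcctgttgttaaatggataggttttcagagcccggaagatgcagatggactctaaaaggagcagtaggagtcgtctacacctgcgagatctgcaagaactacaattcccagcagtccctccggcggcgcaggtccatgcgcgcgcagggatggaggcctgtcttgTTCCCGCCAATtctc

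These windows lie at chr13:51644982-51645231 on the plus strand (Cks2), chr3:89418292-89418541 on the minus strand (Cks1b) and chr10:128014965-128015214 on the plus strand (Prim1). Cks2 has CCAAT matches whose first bases lie 65 and 22 bases before the start, 2 more after it, and no match to the other motifs. Cks1b has 4 CCAAT matches, and CHR matches 77 and 17 bases before its start. In Prim1 the E2F core, 15 bases before the start, overlaps the CCAAT match that begins 9 bases before it.

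Of the 46 genes 38 had a promoter window in the RefSeq table, Ccnb1 included, with 41 windows of 300 bases (250 before to 50 after the start). A CCAAT match stood in 31 of the 41 (75.6%), against 37.4% of all 32851 windows. The CHR stood in 13 (31.7%, against 17.9%) and the E2F core in 8 (19.5%, against 4.6%). The E2F windows belonged to 7 genes, Cdc6, Cdk2, Mcm3, Mcm7, Pola1, Prim1 and Rrm1. Except for Prim1, none of these genes reached 2-fold in any comparison, as was so for most genes of the table. Past 2-fold were 2.44%, 2.65% and 2.6% of all genes in the 3 comparisons. Cdc6, Mcm3, Mcm7, Pola1 and Rrm1 were tied on all arrays, and nothing is read from this about the motif. A match describes letters only and shows no binding.

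Origin licensing and firing was represented by 9 genes, and none reached 2-fold, against 2.44%, 2.65% and 2.6% of all genes in the 3 comparisons. Cdc6, which loads the helicase, was at 5.75 on all arrays. The helicase subunits Mcm3 (6.05), Mcm5 (6.20), Mcm6 (6.44) and Mcm7 (5.93) were tied on all 3 as well, as was Cdc45, the helicase cofactor, at 6.07. Mcm2 was at 6.44 in mature mast cells and 6.59 in the other populations. Mcm4 was at 6.78 in mature mast cells and 6.29 in the others. Gins2, a GINS subunit, was at 6.23 in progenitors and 6.14 in the others. The subunits of the same helicase thus differed in opposite directions where they differed, by less than 0.5.

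The genes of nucleotide supply and of repair and histone handling in S phase differed by at most 0.07 between arrays on the probe sets used. Rrm1, the large subunit of ribonucleotide reductase, was at 4.73 on all arrays. Rrm2, the small subunit, was at 5.17 in progenitors, at 5.11 in mature mast cells and at 5.13 in ILC2s on the brighter of its probe sets. On the other it was at 4.65, 4.86 and 4.65. Tyms, the thymidylate synthase, was at 7.17 in both mast cell populations and 7.10 in ILC2s. Ung, which removes uracil from DNA, was tied at 5.98, and Slbp, which binds the stem-loop of histone mRNA, at 7.10.

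Of the kinases, Cdk4, the partner of D-type cyclins, had the largest difference, at 7.54 in mature mast cells and 6.93 in both other populations. This is a log2 difference of 0.61 and below 2-fold. Its relative Cdk6 was at 4.89 in progenitors and 5.16 in the others. Cdk2, the kinase of the start of S phase, was at 6.59, 6.64 and 6.68 in progenitors, mature mast cells and ILC2s. Cdk1, the mitotic kinase, was tied at 5.47.

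Of the 6 measured cyclins 4 were tied on all arrays, against 47.9% of all genes. The 4 were Ccna2 of S phase and mitosis at 5.98, Ccnd1 at 6.44, Ccnd2 at 6.81 and Ccne1, the partner of Cdk2, at 7.68. Ccnd3, the D-type cyclin of many blood cells, was at 7.93 in progenitors and ILC2s and 7.68 in mature mast cells. Ccnb2, a mitotic cyclin, was at 6.59 in both mast cell populations and 6.57 in ILC2s. Cdk4 and its partner Ccnd3 thus lay on opposite sides, with mature mast cells highest for the kinase and lowest for the cyclin, by less than 2-fold each.

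The inhibitor gene Cdkn1b, which encodes p27, was at 7.05 in ILC2s, 6.53 in progenitors and 6.39 in mature mast cells. The largest of these differences was 0.66. Cdkn1a, which encodes p21, was at 7.14 in both mast cell populations and 6.98 in ILC2s. Neither gene reached 2-fold.

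Of 13 genes of mitosis 11 were tied on all arrays, against 47.9% of all genes. Equal expression is not read from these ties, which hide small differences. Tied were the Aurora kinase genes Aurka (5.95) and Aurkb (6.51), the checkpoint kinase gene Bub1 (4.42) and Birc5, the survivin subunit of the Aurora B complex (5.31). Cdc20 and Ube2c, which activate and serve the anaphase-promoting complex, were tied at 6.51 and 6.16. Also tied were the topoisomerase gene Top2a (6.27), the centromere histone gene Cenpa (6.62), the kinetochore motor gene Cenpe (5.99), the spindle motor gene Kif11 (6.15) and Tpx2, an activator of Aurora A (5.78). Plk1, the polo-like kinase, was at 6.53 in progenitors and ILC2s and 6.45 in mature mast cells. Mki67 was at 6.39 in both mast cell populations and 6.64 in ILC2s, the largest difference among the mitosis genes. A further probe set that names Top2a together with Taf1d, and so cannot be assigned to either, was at 8.90 in progenitors, at 6.89 in mature mast cells and at 8.50 in ILC2s.

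The exact ties limit what these arrays can show for this set. Of the 45 genes, 28 (62.2%) were tied on all 3 arrays, against 47.9% of all genes. Another 12 were tied on a single pair of arrays, and 5 had no tie: Cks2, Prim1, Rrm2, Cdk2 and Cdkn1b. Where a single array stood apart, it was that of mature mast cells for 6 genes (13.3%, against 9.08% of all genes). It was that of ILC2s for 4 (8.89%, against 10.4%) and of progenitors for 2 (4.44%, against 12.7%). Tied genes numbered 32 between progenitors and mature mast cells (71.1%, against 58.3% of all genes). Between progenitors and ILC2s they numbered 34 (75.6%, against 57%), and between mature mast cells and ILC2s 30 (66.7%, against 60.6%). A tie gives no difference of any size, so for these genes a small difference between the populations was not detectable.

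Ties went with level. Over all genes the share tied on all arrays was 43.9% below a mean level of 5, 52.6% at 5 to 6, 52.1% at 6 to 7, 40.2% at 7 to 8 and 7.79% at 8 and above. In the same ranges 2 of 2, 9 of 11, 15 of 26, 2 of 6 and 0 of 0 replication and mitosis genes were tied. On single arrays 21, 22 and 21 of the 45 genes lay above the median of progenitors, mature mast cells and ILC2s, close to an even split. Above a level of 8 were Cks2 in progenitors and Prim1 in mature mast cells, and no other.

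**Figure D4:**
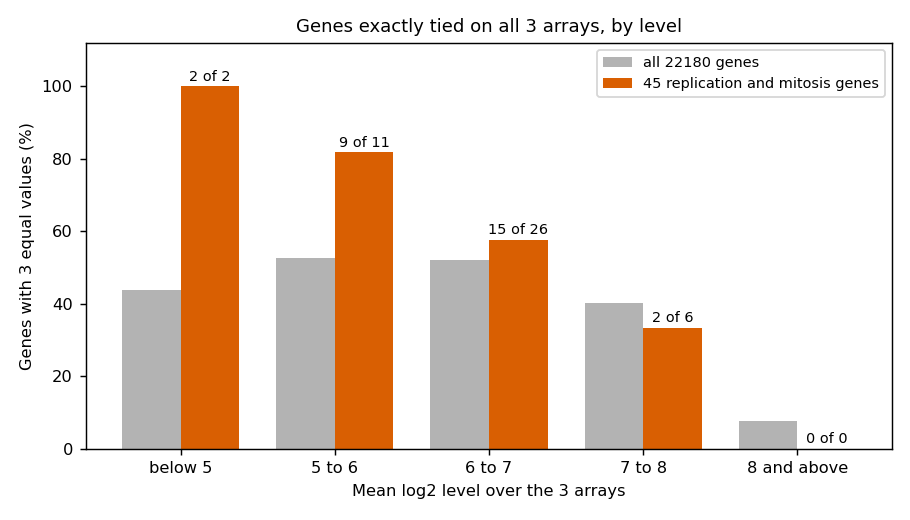
Share of genes with exactly equal values on all 3 arrays (vertical axis, %) by mean log2 level (horizontal axis), with grey bars for all genes and orange bars for the 45 replication and mitosis genes, whose counts stand above the bars. The grey bars fall to 7.79% at 8 and above, where none of the 45 genes lies.

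Tied values were also shared between genes. Of the 28 tied genes, 22 held a value that at least 1 other gene of the table held on all 3 arrays. Ung and Ccna2 had the same value (5.98), which 63 genes held, and Aurkb and Cdc20 had the same value (6.51), which 27 genes held. Over all genes 8246 (37.2%) shared their 3 values with another gene. Of these, 8244 were among the 10626 genes tied on all arrays, so sharing went with ties in the whole table too. The cause of the ties was not tested.

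Further genes of the same processes were drawn from 9 lists with 221 genes, of which 208 were measured. In these, 109 (52.4%) were tied on all 3 arrays, against 47.9% of all genes. By their brightest probe sets, none was at least 2-fold higher in progenitors than either other population. The other probe set of Hmgb1 was, at 10.88 in progenitors against 9.64 in ILC2s. Lower in progenitors by at least 2-fold were 9 genes against mature mast cells, 5 of them by at least 4-fold, and 9 genes against ILC2s, 4 of them by at least 4-fold. Between mature mast cells and ILC2s 6 were at least 2-fold higher and 6 lower, of which 3 and 2 reached 4-fold. The shares lower in progenitors at 2-fold were 4.33% of the 208 genes in both comparisons, against 1.93% and 1.88% of all genes. At 4-fold they were 2.4% and 1.92%, against 0.834% and 0.888%. Between mature mast cells and ILC2s 2.88% were higher and 2.88% lower at 2-fold, against 1.34% and 1.26% of all genes. At 4-fold these shares were 1.44% and 0.962%, against 0.573% and 0.401%. The median difference over the 208 genes was 0 in each comparison, as over all genes. Because the lists were chosen with earlier results of these data known, no excess over all genes is read from their shares, here or below.

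Replication genes with the highest level in mature mast cells, as for Prim1, included Rfc2 and Pole. Rfc2, a subunit of the clamp loader, was at 6.46 in progenitors, at 9.49 in mature mast cells and at 6.13 in ILC2s. Pole, the catalytic subunit of DNA polymerase ε, was at 5.99, 7.06 and 5.70 by its brighter probe set, while the other was tied at 5.78. Mature mast cells were at least 2-fold above both other populations in 5 of the 208 genes, against 1.08% of all genes. The further members were Hat1, a histone acetyltransferase gene (7.27, 9.35 and 7.12), Ccnk, the cyclin of transcriptional kinases (5.72, 8.06 and 5.38), and Max, the partner of Myc (7.16, 8.90 and 7.16). Hat1 was highest in mature mast cells on its dimmer probe set too, at 4.41, 5.58 and 4.72.

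Progenitors were at least 2-fold below both other populations in 4 of the 208 genes, against 0.739% of all genes. Anapc13, a small subunit of the anaphase-promoting complex, was at 7.85 in progenitors, at 10.16 in mature mast cells and at 11.71 in ILC2s. Ccng1, an atypical cyclin induced by p53, was at 6.61, 8.39 and 8.90. Rpa3, a subunit of the single-strand DNA binding complex, was at 5.86, 8.61 and 7.71, and on its other probe set at 6.37, 7.05 and 7.05. Skp1, an adaptor of SCF ubiquitin ligases, was at 7.25, 9.19 and 8.49, whereas its other probe set was at 7.35, 7.35 and 7.21.

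ILC2s were at least 2-fold above both mast cell populations in 5 of the 208 genes, against 1.1% of all genes. Gmnn, which encodes geminin, the inhibitor of origin licensing, was at 8.07 in ILC2s and 5.79 in both mast cell populations. Anapc11, the catalytic RING subunit of the anaphase-promoting complex, was at 8.55 against 6.47 in progenitors and 6.45 in mature mast cells. Smc3, a cohesin subunit, was at 7.56 against 6.36 and 6.50. Anapc13, given above, was also among the 5. The retinoblastoma gene Rb1 was at 7.10 against 6.04 and 5.96 by its brighter probe set, but its other probe set was highest in mature mast cells, at 8.41 against 4.13 in progenitors and 4.04 in ILC2s.

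**Figure D5:**
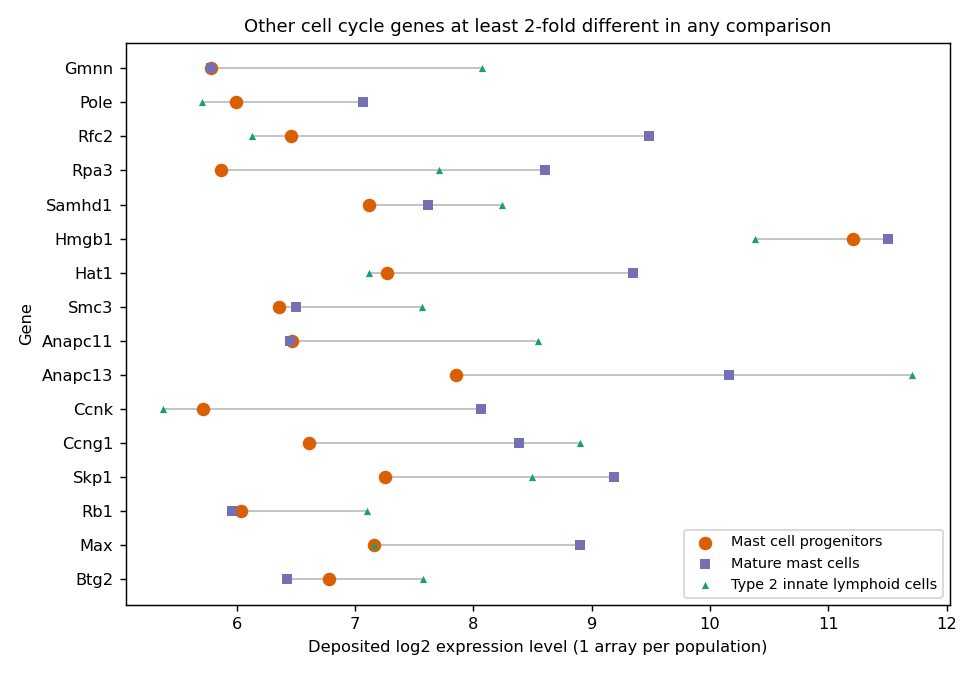
Deposited log2 level (horizontal axis) on the 3 arrays for the 16 of 208 further cell cycle genes (rows) that were at least 2-fold different in any comparison, with circles for progenitors, squares for mature mast cells and triangles for ILC2s. Progenitors are highest in none of the 16, and Rfc2 (9.49) and Anapc13 (11.71) show the widest gaps.

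No gene reached 2-fold in any comparison in the list of 37 spindle, kinetochore and checkpoint genes. Nor did any in the list of 19 measured genes of DNA repair in S phase. Over all genes 2.44%, 2.65% and 2.6% reached it in the 3 comparisons, so nothing is read from these lists. The remaining genes past 2-fold were Samhd1, a dNTP hydrolase gene (7.12, 7.62 and 8.24 in progenitors, mature mast cells and ILC2s), Hmgb1, a chromatin protein gene (11.21, 11.50 and 10.38, and 10.88, 11.58 and 9.64 on its other probe set), and the antiproliferative gene Btg2 (6.78, 6.42 and 7.57).

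No listed gene came close to Cks2 when the size of the differences was counted along with their order. Likeness was measured over the 3 arrays as the sum of absolute differences between log2 levels, each centred on the gene's own mean. A gene with 3 equal values would lie 3.75 from Cks2. Of 252 genes, the nearest was Anapc10, a subunit of the anaphase-promoting complex, at a distance of 2.98, with levels of 5.08, 4.53 and 4.47 in progenitors, mature mast cells and ILC2s. Next came Incenp of the Aurora B complex at 3.30 and Rad51ap1 at 3.35, followed by Exo1 at 3.36 and Brca1 at 3.38. Each of these 5 genes stayed within 2-fold over the 3 arrays. Anapc10, Incenp and Rad51ap1 had the same order of levels as Cks2, and Exo1 and Brca1 were highest in progenitors with the other arrays tied. The differences of Cks2 itself rest on levels below the medians in mature mast cells and ILC2s.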

How the data were processed

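The values are those the authors deposited for 41345 probe sets. Per the submitters' processing notes they are RMA output, with software, version and genome build not given in the sources used here. That they are log2 levels was inferred from their range, 2.23 to 13.7. RMA subtracts background, equalises the arrays' distributions and combines the probes of a set by median polish, a step that can return equal values for several arrays. Probe-level signals were not used here. Per the platform's gene table, 23521 probe sets named 1 gene, 1814 several and 16010 none in the table used.

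Differences of log2 levels, counts past 2-fold and 4-fold above the median floor, and ties (deposited values equal as written) were computed with Python 3.11.15 and pandas 2.3.3. The counting was tested on simulated data. Synonyms came from RefSeq's gene table of GRCm38.p6. Genes outside the 45 could be named when past 4-fold in any comparison or among the next 3 of their list by size of difference; of these, those past 2-fold are described, a choice made after their values were seen; genes near Cks2 were the 5 with the smallest distance. The members and lists were chosen with earlier results of these data known. The number of arrays limits the precision.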

Additional observations from a re-analysis of the deposited data

How the results depend on the processing

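Counts of the 45 genes past 4-fold and 2-fold were recomputed under 7 alternatives: the floor removed or raised to the 75th percentile, the mean of all probe sets of a gene, its probe set of largest range, probe sets naming several genes added, arrays centred on their medians, and arrays quantile normalized again. Tie counts were recomputed under 4, the 3 choices of probe sets and differences under 0.01 counted as ties, and not under the floors or new scalings. Of 54 recomputed counts 53 stayed within 1.5 times the reported one. Only 2 of the 45 genes, Cks2 and Rrm2, have several probe sets naming them alone. The mean and the largest range over probe sets therefore could not change the other genes. Raising the floor could not remove Cks2 in progenitors (8.08) or Prim1 in mature mast cells (8.20). Those arrays' 75th percentiles were 6.86 and 6.85. Centring could move differences only a little, since the arrays' medians lay between 6.30 and 6.32. The exception was the 2-fold count between mature mast cells and ILC2s, which became 2 with probe sets naming several genes. The added gene is Top2a, through the brighter of the probe sets it shares with Taf1d. The same probe set adds Top2a at 4-fold and at 2-fold between progenitors and mature mast cells. There the counts rose from 2 to 3, which the margin of 1.5 times still admits.

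The choice of probe set set the size of the Cks2 difference, which ran from 2.33 to 5.47 against mature mast cells and from 3.26 to 6.53 against ILC2s over these alternatives. The Prim1 differences ran from -2.12 to -2.09 and from 1.83 to 1.87. No paired analysis was possible because each population has 1 array. Leaving out an array was not possible for the same reason. Levels below the arrays' medians may be set by background, which limits every fold of a dim gene.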

Other observations

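Besides the probe set described above, 4 further probe sets named a replication or mitosis gene together with another gene and were in no count. A second one for Top2a and Taf1d held 3.42 on all arrays. One for Tyms and its pseudogene Tyms-ps was at 7.51 in progenitors, at 6.97 in mature mast cells and at 7.41 in ILC2s. One for Mir25 and Mcm7 was tied at 6.67, and one for Mir93 and Mcm7 was at 6.49 in both mast cell populations and 7.09 in ILC2s.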
